A study of Homo sapiens with 4 samples.

Results

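The regions described here are PABPC4 peaks that lie in introns, in or close beside Alu elements running in the same direction as the host gene. PABPC4 is a cytoplasmic poly(A)-binding protein, and its binding sites were mapped by PAPERCLIP in MDA-MB-231, an established human breast cancer line of mesenchymal character. In PAPERCLIP the protein is cross-linked to RNA with ultraviolet light and pulled down, and the attached RNA is copied and sequenced. The authors copied it with a custom primer and left out the kit's step of adding a poly(A) tail. A peak counted as a member when its centre lay on its own strand in an intron of GENCODE 44, outside every annotated exon, and when the peak with 100 nt added on each side matched an Alu consensus on the same strand at a BLAST E-value of at most 1e-05. This rule found 22609 members among 38249 intron peaks and 63507 PABPC4 peaks in all.

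The series held 2 samples for PABPC4 and 2 for HNRNPC, a nuclear RNA-binding protein that binds runs of U. All were untreated cultures of the same line, cross-linked at 400 mJ/cm2. Each protein had 1 list of peaks made from both of its samples together, which leaves no sample-to-sample spread for any value given here, and the intervals cover counting error only. Peak height is the number of sequenced tags at the summit of a peak, not scaled to depth, and the depth of each library is not known from the lists. Genes of the mesenchymal state had tall PABPC4 peaks in their 3′ UTRs, with 10197 tags in VIM, 2714 in CAV1, 1345 in S100A4, 1041 in AXL, 331 in CD44 and 190 in FN1. ESR1 and PGR, hormone receptor genes that this line lacks, had 0 such peaks, while GATA3, a luminal gene, had 1 of 108 tags.

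Alu elements are short retrotransposons of primates that crowd into introns. Each is a dimer of related arms, with an A-rich linker between the arms and a tail of A at the 3′ end. An Alu that lies in the direction of its gene therefore places stretches of A into the intron of the pre-mRNA, and one that lies in the opposite direction places stretches of U there. Poly(A)-binding proteins hold the tails of mRNAs, where the cytoplasmic ones support translation and control decay.

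A consensus built from 600 Alu copies of chromosome 19 was 281 nt long without its tail, with the linker at positions 120 to 132. Of these 13 linker bases, 11 were A. The 30 bases around the end of the body are shown because members ended most often exactly there. Lower case stands before the boundary and the capitals mark the A-rich bases after it.
Alu consensus, body to tail: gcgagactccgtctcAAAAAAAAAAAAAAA

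The place where members ended most often was the 3′ end of the Alu body. The last base of 1732 members was position 281, the last base of the body, and positions 282, 280 and 283 held 883, 835 and 597 more. Within 5 nt of this boundary ended 5701 members, or 25.2% (95% Wilson interval 24.7 to 25.8). A smaller group ended before the linker. Position 119 was the last base of 327 members and position 116 of 243, and 1160 members (5.13%, 4.85 to 5.43) ended within 5 nt of position 119. Lesser clusters lay in the right arm, among them positions 273 (288 members), 269 (266), 221 (251), 222 (244) and 253 (237). Each of 22541 members could be assigned to an element that it lay in or beside. These were 20574 different elements, of which 1843 held more than 1 member.

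**Figure D1:**
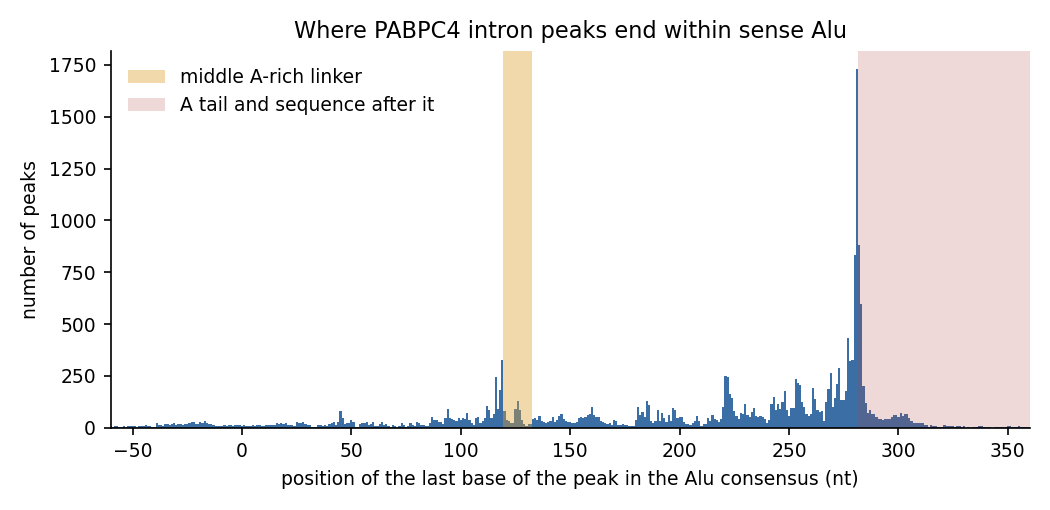
Number of members (y axis) by the position of their last base in the Alu consensus (x axis, nt), with the linker in yellow and the tail and flanking sequence in red. The tallest bar is position 281 with 1732 members, and a second, smaller group ends at position 119 with 327.

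For the comparisons below, a tail window ran from position 231 to 301 and a linker window from 69 to 139. The tail window held 11597 members (51.3%) and the linker window 3316 (14.7%). The other placed members numbered 7628 (33.7%), and 4700 of them ended between both windows, in the right arm. Outside the element, 886 (3.92% of members) ended before the Alu and 829 (3.67%) more than 20 nt past its body.

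The width of a peak went with its place. Most members, 13958 of 22609 (61.7%), were 47 or 48 nt wide. Of these, 14.1% ended within 5 nt of the tail boundary, and 30.8% had an A-rich stretch in the next 20 nt. A stretch was called A-rich where 6 consecutive bases, or at least 7 of 10, were A. Among the 4727 members under 40 nt wide, 46.6% ended within 5 nt of the tail boundary, 13.6% within 5 nt of the linker, and 88.3% had an A-rich stretch in the next 20 nt. Intron peaks outside Alu also had such a stretch more often when narrow, 78.2% under 40 nt against 36.8% at 47 or 48 nt. The narrow members were also lower, with a median height of 27 tags against 39 for those of 47 or 48 nt. Sequencing was single-end with reads of 50 nt, and the part of read length in the widths was not tested.

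Genomic A content rose sharply at the end of a member. Averaged over members, A made up 29.6% of the 20 bases up to the peak end and 51.0% of the next 20. For members under 40 nt wide the values were 32.4% and 76.7%, and for those of 47 or 48 nt they were 27.8% and 38.9%. The rise was not particular to the members: in intron peaks outside Alu the values were 36.1% and 53.9%. In 3′ UTR peaks, A made up 31.8% of the next 20 genomic bases.

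**Figure D2:**
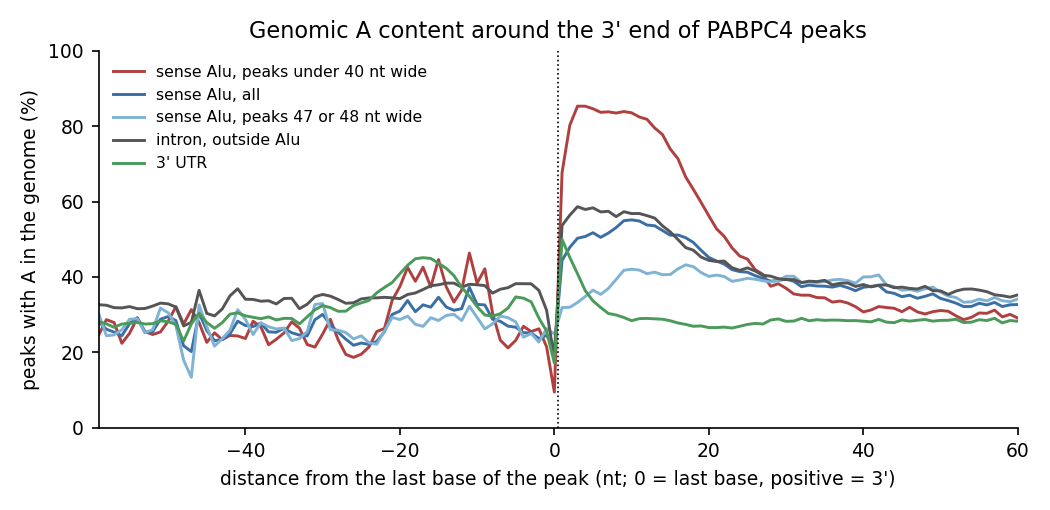
Share of peaks with an A in the reference genome (y axis, %) at each distance from the last base (x axis, nt, positive is 3′) for 5 classes of PABPC4 peak. Over the 20 nt after the peak end the curve of members under 40 nt wide averages 76.7% and that of 3′ UTR peaks 31.8%. Farther out the curves lie closer together.

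An A-rich stretch lay within 50 nt after the end of 15421 members, or 68.2% (67.6 to 68.8). Of the 14850 intron peaks outside Alu, 76.1% (75.4 to 76.8) had one. The match to Alu, which holds A-rich sequence of its own, chose the members, so both shares are a description without a test.

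A poly(A) signal, the hexamer that directs cleavage of mRNA ends, was rare in the members. AATAAA or ATTAAA stood in the last 40 nt of 575 members, or 2.54% (2.35 to 2.76). The share was 12.2% (11.7 to 12.8) in intron peaks outside Alu, and 48.6% in 3′ UTR peaks. The Alu consensus sets much of the sequence searched here, so no test is given. By place, the share of members with a signal was 0.647% in the tail window, 3.17% in the linker window and 5.13% in all others. These others include members that ended outside the Alu or could not be placed.

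Heights of members were moderate and narrow in range. The median was 36 tags, with quartiles of 21 and 58 and a highest member of 705. Intron peaks outside Alu had a median of 34 (18 and 56) and a maximum of 1862, and 3′ UTR peaks a median of 45 (22 and 93) and a maximum of 10197. At 200 tags or more stood 78 members (0.345%), against 0.438% of the other intron peaks and 9.55% of 3′ UTR peaks. Within genes that held both kinds, the median height of members was above that of intron peaks outside Alu in 1824 genes, below it in 1689 and equal in 49. The median ratio was 1.04 and the adjusted p of the two-sided exact sign test 0.0238. Adjusted p-values are by Benjamini-Hochberg over the 6 tests made, and neighbouring peaks and elements are not independent, so they overstate precision. This small difference was not stable: members were higher in only 44.9% of untied genes when peaks under 40 nt were left out, and in 49.4% when only peaks whose last 30 nt stand once in the genome were kept.

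**Figure D3:**
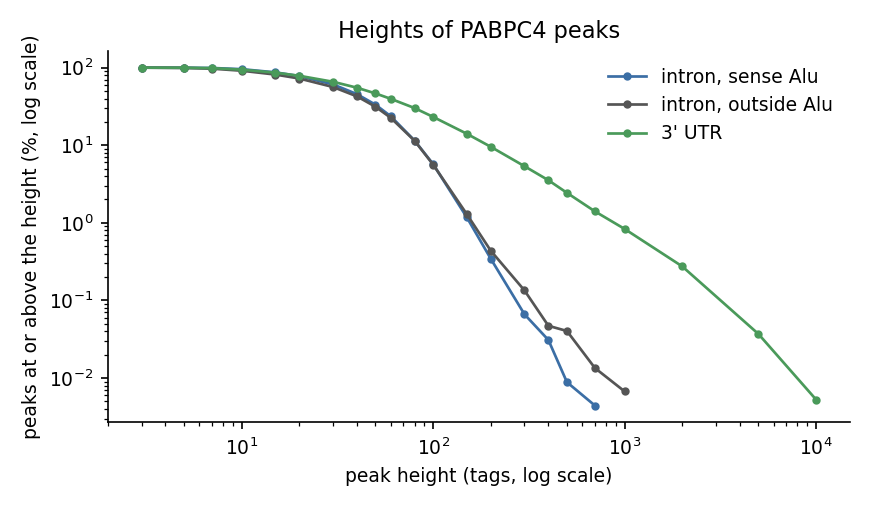
Share of peaks at or above a height (y axis, %, log scale) by height in tags (x axis, log scale) for members, intron peaks outside Alu and 3′ UTR peaks. Both intron classes lie close together, with medians of 36 and 34, and 3′ UTR peaks extend to 10197 tags.

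Peaks ending in the tail window tended to be taller than peaks ending in the linker window of the same gene. Both windows also take in peaks that end a little past the boundary. Over 1690 genes with both, the tail window's median height was the greater in 950 and the lesser in 722, with a median ratio of 1.13 (56.8% of untied genes, 54.4 to 59.2, exact sign test adjusted p = 3.24e-08). The class medians were 37 and 33 tags. Members outside both windows had a median of 38 (quartiles 21 and 62), so height was not greatest in the tail window. In 372 single elements with a member in each window, the tail member was taller in 221 and the linker member in 144.

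The 5 genes with the tallest members were BCL2L1, HMGA2, LINC-PINT, MIR100HG and HP1BP3. The 3′ ends of 3 of these peaks are shown, with 15 bases before the end in lower case and 15 genomic bases after it in capitals, because A-rich sequence stood at their ends. The LINC-PINT and HP1BP3 peaks ended inside a run of A.
LINC-PINT, chr7:130906684-130906767, minus strand, hg38: cctgtgtctttaaaaAAAAAAAAAAAAAAA
MIR100HG, chr11:122118169-122118260, minus strand: aaaaaaaccagaagaAGAAAAAAAAAAGAA
HP1BP3, chr1:20784496-20784572, minus strand: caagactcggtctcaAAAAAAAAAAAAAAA

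All 5 peaks are intronic. The BCL2L1 peak, in the gene of the anti-apoptotic protein BCL-XL, was the tallest member with 705 tags and ended at Alu position 221, with no A-rich stretch in the next 20 nt. HMGA2, which encodes a chromatin architectural protein, had a peak of 533 tags ending at position 273. That Alu also carried a member of 422 tags in the linker window, at position 127. The peak of the long non-coding RNA LINC-PINT reached 495 tags and ended at position 289. MIR100HG, the host transcript of a microRNA cluster, had 473 tags at a position 47 nt past the body, 328 as counted along the consensus. HP1BP3, which encodes a heterochromatin protein, had 429 tags ending at position 282.

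Which sense Alu elements of an intron carried a member went with the length of their A tail. The introns of host genes held 180763 sense elements, and 20338 of them (11.3%, 11.1 to 11.4) carried one. The longest A run in the 40 nt after the body could be measured in 148523 elements. Of elements with a run of 0 to 5 A, 3.57% (3.36 to 3.79) carried a member, and the share was 7.49% at 6 to 9 A, 14.8% at 10 to 14 and 21.1% (20.6 to 21.7) at 15 to 19. At 20 A or more it was 19.2% (18.7 to 19.8), below the preceding class. Runs of 15 or more against under 6 gave 20.3% and 3.57%, a difference of 16.8 percentage points (16.3 to 17.2, Fisher exact test, log10 of the adjusted p -1043).

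**Figure D4:**
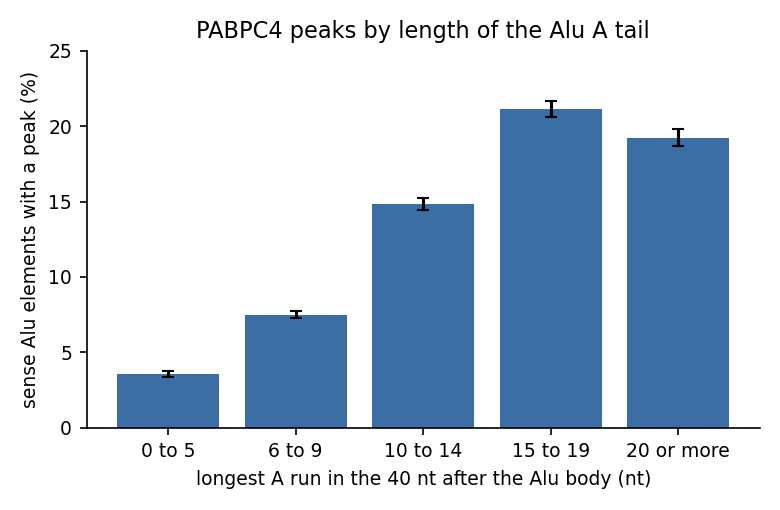
Share of sense Alu elements in introns of host genes that carry a member (y axis, %) by the longest A run in the 40 nt after the Alu body (x axis, nt), with 95% Wilson intervals as error bars. The share goes from 3.57% at 0 to 5 A to 21.1% at 15 to 19 A and is 19.2% at 20 A or more.

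The same held inside genes. Elements with a member had a longer median A run than elements without one in 4982 genes and a shorter one in 1024, with 199 equal (83.0% of untied genes, 82.0 to 83.9, exact sign test, log10 of the adjusted p -617.8). Over all genes the median run was 14 nt with a member and 9 nt without. Host genes were also split into 3 equal classes by their tallest 3′ UTR peak. From the lowest class to the highest, occupancy was 19.4%, 23.8% and 29.3% for elements with runs of 15 or more, and 3.70%, 3.99% and 5.16% for those under 6.

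Similarity to the consensus is higher in elements inserted more recently. Over all sense elements of host genes, occupancy was 10.9% at under 80% identity, 11.9% at 80 to 85%, 11.7% at 85 to 90% and 9.06% at 90 to 95%. Of the 285 elements at 95% or more it was 7.72% (5.15 to 11.4). From 80% upward the values fell, with overlapping intervals at the first and the last step. Among elements with runs of 15 or more, 27.2% of those under 80% identical carried a member, 25.2% at 80 to 85%, 19.6% at 85 to 90%, 13.8% at 90 to 95% and 10.3% (6.02 to 17.2) of the 116 that were at least 95% identical. The 30 bases ending at the peak end stood once in the genome for 56.2% of members, against 96.6% of intron peaks outside Alu, and 26.7% of members had 10 or more copies. By identity of the element, the share of members with such a unique end was 71.6%, 59.8%, 48.2% and 43.6% from under 80% to 90 to 95%, and 15 of 23 at 95% or more. The part of read mapping in these values was not tested. Among the 12704 members with a unique end, 49.9% lay in the tail window and 71.9% had an A-rich stretch within 50 nt. With these members alone, the difference in occupancy between long and short runs was 9.78 percentage points. All sense elements of their host genes were still counted, so this value is smaller by construction.

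Position in the intron made smaller differences. Of 22425 elements centred under 500 nt from an exon, 2915 carried a member, and beyond 10000 nt the share was 9.06%. With genes cut into 5 equal parts, occupancy was 12.1% in the 5′-most part and 9.13% in the 3′-most. With an antisense Alu centred under 500 nt away it was 11.8%, and with none within 5000 nt it was 9.09%. The median tail run was 9 nt in both of these antisense classes. By distance to an exon it was 10 nt in elements under 500 nt away and 9 nt beyond 10000 nt.

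Members stood in 6757 host genes, or 53.1% of the 12730 genes with a PABPC4 peak. This counts the 22387 members that lay inside the span of the gene they were listed under. There were 2706 hosts with 1 member, 1436 with 5 or more and 73 with 20 or more. Hosts were long genes, with a median span of 66.5 kb against 20.7 kb for the other genes with a peak. The tenth of hosts with most members, 676 genes, held 37.0% of them. A 3′ UTR peak was present in 73.1% of hosts (72.0 to 74.2), in 76.7% of the other genes with a PABPC4 peak (75.6 to 77.8) and in 74.8% of all. The median of the tallest 3′ UTR peak was 77 tags in hosts and 65 in the other genes.

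The 10 genes with most members spanned 301.2 to 685.4 kb. MAGI1, a scaffold of cell junctions, had 52 members with heights of 11 to 174 and a median of 56, in 40 of its 125 sense elements. FRMD5, a FERM-domain protein, had 50 (12 to 190, median 48.5), and CUX1, a homeodomain transcription factor, also 50 (13 to 174, median 42.5). The cofilin phosphatase gene SSH2 had 44 members and a median of 35.5, in 34 of 141 elements. PTK2, the focal adhesion kinase, had 42 members, and 30 of its 86 elements were occupied. Then came SIPA1L3 with 41, JMJD1C with 40, the translation factor gene EIF4G3 with 38, the heparan sulfate polymerase gene EXT1 with 37, and PRKCA, protein kinase C alpha, with 36. EXT1 had the greatest median height of these genes, 59, and SIPA1L3 the lowest, 31, and the ranges of all 10 overlapped.

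**Figure D5:**
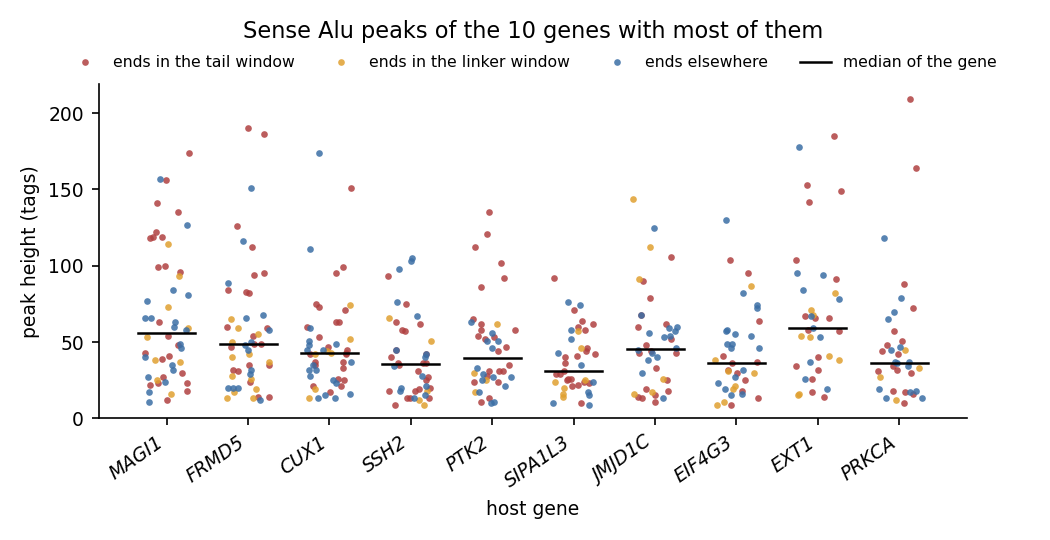
Height in tags (y axis) of each member in the 10 host genes with most members (x axis), coloured by whether it ends in the tail window, in the linker window or elsewhere, with the gene's median as a bar. Medians run from 31 in SIPA1L3 to 59 in EXT1, and the heights of all genes overlap.

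Among host genes with 20 or more sense elements, the median share of occupied elements was 8.70% (quartiles 4.44 and 14.8). Genes without a member were left out of these values. The largest share was 54.5% in LGR4, the R-spondin receptor (12 of 22). Next were AFF4, a scaffold of the super elongation complex (15 of 31), BCL2L1 (13 of 27), the ubiquitin ligase gene SMURF2 (21 of 44) and GALNT10, of mucin-type glycosylation (15 of 32).

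Some genes were named by the study. PDLIM5, which encodes a PDZ and LIM domain protein, had 8 members with heights of 107, 53, 24, 56, 26, 92, 57 and 18 tags from 5′ to 3′. They lay in 8 of its 25 sense elements, and its tallest 3′ UTR peak had 331. The HNRNPC gene itself also had 8 members, of 137, 61, 18, 32, 78, 15, 24 and 15 tags from 5′ to 3′. In 2 of its elements 3 members each followed one another along the same Alu. TXNRD1, which encodes thioredoxin reductase, had 5 members, of 20, 59, 10, 86 and 11 tags. Its first member and the last of PDLIM5 ended exactly at the tail and at the linker of their Alus.
TXNRD1, chr12:104228267-104228301, plus strand: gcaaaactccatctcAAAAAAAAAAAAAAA
PDLIM5, chr4:94629156-94629186, plus strand: aacccgatctctattAAAAATACAAAAATA
The tallest members of the same genes ended elsewhere, at position 224 in both, with no A-rich stretch in the next 20 nt. KAT14, an acetyltransferase gene, had 1 member of 52 tags, PGK1, of glycolysis, 1 of 36, and PABPC4 itself 0.

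The 4 gene lists were read as counts, beside 53.1% hosts among all genes with a peak, a median height of 36 and an occupancy of 11.3%. Occupancy counts the sense elements of host genes only, in each list as in the 11.3%. Listed genes without a member do not enter it, which raises the share, so it does not describe a whole list. Of 19 cleavage and polyadenylation genes with a peak, 12 were hosts, with 34 members of median height 38.5 and an occupancy of 18.0%. WDR33, which recognises the poly(A) signal, had 7 of them and CPSF6, of cleavage factor I, held the tallest with 152 tags. Of 12 genes of poly(A)-binding proteins and their partners, 7 were hosts, with 33 members and an occupancy of 17.4%. LARP1 and LARP4B had 9 members each, and PAIP1, which bridges PABP and translation factors, had 2, of at most 13 tags. Of 16 genes of double-stranded RNA sensors and editors, 7 were hosts, with 28 members and an occupancy of 16.4%. STAU1, a double-stranded RNA-binding protein of mRNA decay, had 9, whereas the editing enzyme gene ADAR and the kinase gene EIF2AK2 had 0. Of 14 DNA repair genes chosen for their Alu-rich introns, 13 were hosts, with 40 members and an occupancy of 9.63%. WRN, a RecQ helicase gene, had 7 members in 28 sense elements, of which 6 were occupied.

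Few members were touched by an HNRNPC peak, and the HNRNPC list held only 9107 peaks. At least 1 nt was shared with an HNRNPC peak on the same strand by 10 members (0.0442%, 0.0240 to 0.0814) and on the opposite strand by 2. The same share was not taken for other PABPC4 peaks, so the low count cannot be read as a trait of the members. At the level of genes, 21.9% of hosts (20.9 to 22.9) had an HNRNPC intron peak in an antisense Alu, against 4.45% of the other genes with a PABPC4 peak (3.96 to 5.01). Hosts were also the longer genes, as given above, and the part of gene length in this was not tested.

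Both strands of Alu were at hand in the hosts. Their introns held 180763 sense and 219248 antisense elements, which covered 5.82% and 7.10% of the intron sequence. Members made up 59.1% of PABPC4 intron peaks, and 790 others (2.07%) matched an antisense Alu alone. Strand and Alu match chose the members, so no test was made. At the edge of the rule, the weakest member matched with 33.7 bits, and an E-value limit of 0.001 would have added 95 intron peaks with a median of 30.1 bits. Of the members, 410 matched Alu sequence on both strands.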

How the data were processed

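PAPERCLIP for PABPC4 and CLIP for HNRNPC were made by the authors in 2 samples each, without treatment. The deposited signal is the peak height in pooled unique tags, which the authors did not scale to depth. Per the labels and methods, HNRNPC reads were collapsed by their molecular identifiers, which UMI-tools then extracted, and were trimmed with cutadapt. They were aligned to hg38 with BWA 0.7.17, and CTK 1.1.13 removed PCR duplicates and called peaks. The processing of PABPC4 reads is not given separately in the sources used here. Tags are not independent molecules where identifiers were not used, so intervals cover counting error only. Fold values are ratios of deposited heights.

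Of 69778 PABPC4 entries, 6271 repeated a position under another gene ID and each position was counted once, under the listed ID whose RefSeq (GRCh38.p14) or GENCODE 44 span held it. Exons of transcripts subject to nonsense-mediated or non-stop decay counted as non-coding exons. A peak ran past a chromosome end 0 times. The Alu consensus was aligned with MAFFT 7.526, and blastn 2.17.0 found members and all genomic elements. Statistics used SciPy 1.17.1. The search was tested on simulated windows. Shares with an A-rich stretch or a poly(A) signal were also compared by Fisher exact tests, which count among the 6 tests but are reported as descriptions because the Alu match chose the sequence. Named genes were the 10 hosts with most members, the 5 with the tallest, the 5 of those with at least 20 elements with the largest occupied share, and genes the study named. The members and lists were chosen with earlier results of these data known. Alternatives were E at most 1e-20, 20 nt flanks, authors' p at most 0.001, heights at or above the list median of 38, assignment by last base, single-ID positions, protein-coding genes, 1 peak per gene, and other windows for the A stretch, signal, A run and boundary. Added after seeing the data were 3 subsets (no antisense match, width of at least 40 nt, last 30 nt once in the genome) and the test of A runs within genes. A few sequences and 1 gene are not reported here.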

Additional observations from a re-analysis of the deposited data

How the results depend on the processing

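There were 103 alternative values, and 88 kept their direction and side of the threshold or stayed close. The difference in height between members and other intron peaks of a gene was the exception. Members were higher in 51.3% of untied genes with the authors' p at most 0.001 (p = 0.143) and in 51.4% with assignment by last base (p = 0.102), by the exact sign test without adjustment, and both missed the threshold. The direction turned at heights at or above the list median (49.4%, p = 0.646), at widths of at least 40 nt (44.9%, p = 1.07e-07) and with the last 30 nt found once in the genome (49.4%, p = 0.564, all by the exact sign test), and the cause was not tested. The count of members was 10920 at heights at or above the median, 6757 with 1 peak per gene and 12704 with unique ends, all smaller by construction. Hosts with a 3′ UTR peak were 74.9% with 20 nt flanks, 79.1% at heights at or above the median, 78.0% for protein-coding genes, 74.99% at widths of at least 40 nt and 75.4% with unique ends. Members touched by HNRNPC numbered 6 at heights at or above the median and 1 with 1 peak per gene. The difference in occupancy by A run was between 5.50 and 17.04 percentage points, lowest with 1 peak per gene, and that in the share with an A-rich stretch was between -11.2 and -4.15. Subsets of members were set against all sense elements of their host genes, which lowers the difference in occupancy by construction. No paired analysis was possible because each protein's tags were combined over its samples before peaks were called, and for the same reason no sample could be left out.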
